A study of Mus musculus with 4 samples.

Results

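The stomach comparison set the RNA of EGFP-positive cells of the Tas2r143-reporter mouse against that of Tomato-positive epithelial cells from the same organ. The mice were Tas2r143-CreERT2 transgenic mice of the C57BL/6 strain that also carried the Cre reporter Rosa26flox-mT-stop-flox-mG, which switches a cell from Tomato to EGFP. They received tamoxifen for 5 days and were analysed 5 days after the last injection, and this held for both sorts. CreERT2 was placed on a bacterial artificial chromosome in the stretch between Tas2r143 and Tas2r126, so the reporter marks cells in which the transgene was active during treatment, together with their descendants, and not cells that carry taste receptor mRNA at harvest. EGFP-positive cells were gated as EGFP+ and DAPI-. Tomato-positive cells were gated as Tomato+, EpCAM+, EGFP- and DAPI-, so only they were chosen for the epithelial surface protein EpCAM. Each sort was pooled from 3 mice of 1 transgenic line into 1 library, with equal numbers of cells in both sorts, and the series holds the same pair of sorts from the trachea, which makes 4 libraries and no replicate. Gene symbols entered the comparison when either stomach library reached 50 normalized counts, a read count divided by a factor of its library. This held for 11094 of 48587 symbols in the table. Of these, 191 were immunoglobulin genes or Jchain and are described apart, and 10903 were other genes.

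Differences are given as log2((EGFP + 1)/(Tomato + 1)) of the normalized counts, and a gene was called higher or lower in EGFP-positive cells from a log2 value of 2 or -2 on, which is 4-fold. With 1 library a side there is no test across genes and no p-value. Ratios of single genes are given with a 95% exact binomial interval, which covers counting error only and not the spread between mice. Wherever a gene is given with 2 values, the first is its normalized count in the EGFP library and the second that in the Tomato library. Totals came to 13.63 and 15.43 M, about 17.3 and 18.9 M reads, with 15163 and 16174 symbols above 0. The 10 most abundant genes held 21.2% of the EGFP and 37.9% of the Tomato total. Sample title and tissue field name opposite tissues, and the titles were followed. In the pair titled stomach, the chief cell gene Pgc stood at 39704 and 992416, but in the pair titled trachea at 10 and 2. Cyp2f2, a gene of airway club cells, stood at 0 and 69 in the former and at 8937 and 337775 in the latter. Lipf, a lipase gene also listed for chief cells, went the other way. It stood at 0 and 0 in the pair titled stomach and at 924 and 53408 in the pair titled trachea.

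Tuft cells are rare epithelial cells of hollow organs that carry a brush of microvilli and sense the luminal content. They use the signalling cascade of taste cells, make eicosanoids and the cytokine interleukin-25, and depend on the transcription factor Pou2f3. In the stomach they lie among pit cells, which secrete gastrokines and mucin, chief cells, which secrete pepsinogen and lipase, acid-secreting parietal cells, and enteroendocrine cells, which release hormones. The lamina propria below holds plasma cells that secrete immunoglobulin A.

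Among the 10903 other genes, 1458 (13.4%) were called higher and 2487 (22.8%) lower in EGFP-positive cells, while 6958 passed the rule in neither direction. The median log2 value was -0.19, and 41.7% of genes lay within 2-fold. A gene that reached the minimum in 1 library only was more likely to differ, so the counts over lists given from here on are descriptions. Each of these counts stands beside the shares of 13.4% higher and 22.8% lower among all 10903 genes. Of the higher genes, 309 stood at 2 or less in the Tomato library, and 1023 of the lower genes stood at 2 or less in the EGFP library. Both markers of tuft cells were among the higher genes. Dclk1, a microtubule-linked kinase, stood at 33844 and 2049, a ratio of 16.5 (15.9 to 17.2). Gfi1b, a transcription factor, stood at 2547 and 158, a ratio of 16.1 (13.9 to 18.7). Chga, the granin of enteroendocrine cells, was at 0 and 88713, at least 37622-fold lower. Pgc was 25-fold lower, and the pit cell gene Gkn1 stood at 55128 and 468388, which is 8.5-fold lower. All 26 genes of the tuft cell list were higher, with a median log2 value of 4.36, and they made up 3.3% of the EGFP total and 0.193% of the Tomato total. Members of the list were chosen with earlier results of these data known, so this count is no test. Some of them, such as Trpm5 and Ptgs1, are counted again in the functional lists below. In such bulk samples, fewer cells of a type and less RNA per cell cannot be told apart. The genes nearest to the rule were Pomt2 at 175 and 43 and Synrg at 135 and 33 just inside it on the higher side, and Cdk16 at 190 and 47 and Nsdhl at 1803 and 453 just outside it. On the lower side, Ampd2 at 77 and 311 lay just inside and Ces2c at 142 and 569 just outside.

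**Figure D1:**
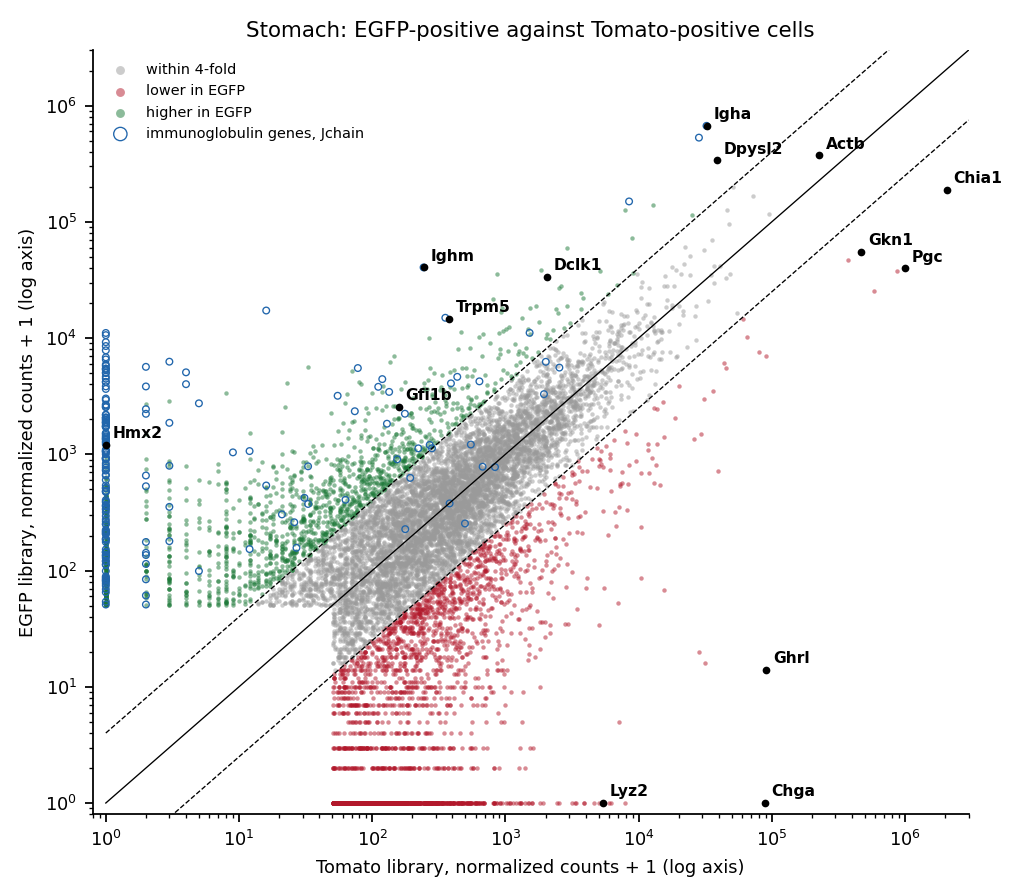
Normalized counts + 1 of every gene at the minimum in the Tomato library (x axis, log scale) and the EGFP library (y axis, log scale) of the stomach. Each point is 1 gene, the solid line marks equal values and the dashed lines 4-fold. The open circles of 181 of 191 immunoglobulin genes, all of which reached the minimum in the EGFP library, lie above the upper dashed line. The gastric genes Pgc, Gkn1 and Chia1 lie below the lower one.

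The protein-coding genes with the largest difference in favour of EGFP-positive cells, at 500 or more, were of varied function. The first was L1cam, a neural cell adhesion molecule, at 2729 and 1, a ratio of 2729 (600 to 132132). Hmx2, a homeobox transcription factor, followed at 1199 and 0, which is at least 490-fold higher. Sox11, another transcription factor of developing neurons, stood at 908 and 1. Gna14, a G protein alpha subunit, was at 548 and 0. Adap1, a regulator of ADP-ribosylation factors, was at 751 and 0. Tm7sf2, an enzyme of cholesterol synthesis, was at 1496 and 1. Tg, which encodes thyroglobulin, was at 607 and 0. Epg5, an autophagy gene, was at 872 and 2. Cd79b, a subunit of the B cell receptor, stood at 2855 and 2. Others were Fbxl21 at 615 and 0 and Greb1l at 528 and 0. These genes held at most 2 normalized counts in the Tomato library, so that the upper bound of each ratio is not defined by the data or is wide.

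At the other end, 11 of the 12 genes with the largest difference in favour of Tomato-positive cells were at 0 in the EGFP library. They fall into a few kinds. Chga, its relative Chgb at 7869 in the Tomato library and the hormone gene Ghrl at 13 and 90866 belong to enteroendocrine cells. Cel, a bile salt-activated lipase, was at 0 and 6250. The chemokine genes Ccl2 and Ccl4 were at 0 and 5987 and at 0 and 3869. Lyz2, C1qb, Ptafr and Dnase1l3 are expressed by macrophages and their relatives, and they were at 5413, 4611, 5017 and 3401 in the Tomato library and at 0 in the EGFP library. Dbpht2 and Prune2 stood at 3871 and 3337 in the Tomato library and at 0 in the EGFP library.

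By normalized count, not corrected for gene length, the EGFP library was led by Igha at 669648 and Igkc at 530119, against 32337 and 28372 in the Tomato library. Actb, which encodes beta-actin, came next at 374499 and 225281, a ratio of 1.66 (1.65 to 1.67). Dpysl2, a cytoskeletal regulator known from growing axons, was the most abundant gene other than actin and the immunoglobulins, at 338359 and 38673, a ratio of 8.75 (8.67 to 8.83). Cd24a, a surface glycoprotein, stood at 139497 and 12844. Krt18, a keratin of simple epithelia, stood at 199950 and 51187, Gnb1, a G protein beta subunit, at 166946 and 71914, and Sdc4, a heparan sulfate proteoglycan, at 127491 and 46267. These last 3 genes did not pass the rule. Chia1, a chitinase of the gastric gland, was still the sixth most abundant gene of the EGFP library at 189673, although it led the Tomato library at 2055085 and was 10.8-fold lower. The Tomato library went on with Pgc, Pla2g1b at 877181, Clps at 587477, Gkn1 and Gkn2 at 375687. The EGFP library held 37761, 25205 and 47114 of Pla2g1b, Clps and Gkn2, so gastric secretory transcripts were lower but not at 0.

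Of 34 transcription factors of epithelial lineages at the minimum, from a list of 47, 8 were higher and 7 lower, beside 13.4% and 22.8% of all genes, and the median log2 value was 0.33. Besides Hmx2 and Gfi1b, the higher genes were Pou2f3, Foxe1, Spib, Ehf, Myb and Sox9. Pou2f3, an octamer-binding factor needed for the tuft cell fate, stood at 2484 and 105, a ratio of 23.7 (19.8 to 28.4). The ETS factors Spib and Ehf stood at 8271 and 537 and at 11973 and 1017. Foxe1, a forkhead factor, was at 109 and 0. The factors on the lower side included genes of the endocrine lineage, Neurod1 at 0 and 121 and Isl1 at 88 and 1154, and genes of gastric identity, Foxq1 at 184 and 1772 and Gata4 at 100 and 727. Bhlha15, a factor of secretory cells such as chief cells, stood at 73 and 324. Hnf4a at 775 and 822 and Gata6 at 6655 and 4122, both widely active in gut epithelium, lay within 2-fold.

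Since Pou2f3 was among the higher factors, the 250 bases before the RefSeq start of genes (build GRCm38.p6, 1 window per gene) were searched for the octamer ATGCAAAT and its other strand ATTTGCAT. The octamer was found in 435 of 27025 windows (1.61%). Among the 102 higher genes of the functional lists and the tuft cell list, 74 had a window, and 2 of these held the octamer. Those are shown here because they are the genes with a match, each 5′ to 3′ on the gene's own minus strand with the octamer in capitals. Kctd12, which encodes a subunit of GABA-B receptors and stood at 5551 and 271, is shown with all 250 bases at chr14:102982638-102982887. For Hpgds, the hematopoietic prostaglandin D synthase, 30 bases around the match are shown at chr6:65144886-65144915, because GENCODE M21 places an exon of the gene there.
Kctd12: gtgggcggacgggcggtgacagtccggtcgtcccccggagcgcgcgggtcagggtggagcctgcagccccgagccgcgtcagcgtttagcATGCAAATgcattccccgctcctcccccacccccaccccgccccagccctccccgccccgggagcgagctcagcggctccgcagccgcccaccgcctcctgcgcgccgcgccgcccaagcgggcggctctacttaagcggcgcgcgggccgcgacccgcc
Hpgds: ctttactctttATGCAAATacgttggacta
The match begins 160 bases before the RefSeq start of Kctd12 and 174 bases before that of Hpgds. A match of letters is no evidence of a bound site. Only 75.1% of the 10903 genes had a window, so the share of windows with the octamer was not compared between called genes and the rest.

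Of 12 genes of the taste cascade at the minimum, from a list of 22, 6 were higher and 1 lower, beside 13.4% and 22.8% of all genes. Their median log2 value was 2.47. The receptor subunit gene Tas1r3, shared by sweet and umami receptors, was at 271 and 0, at least 111-fold higher. The bitter receptor gene Tas2r126 stood at 82 and 20, a ratio of 4.1 (2.57 to 6.47) that fell just short of the rule on the log2 scale. Tas2r143 itself was at 1 and 0 and Tas2r135 at 0 in both libraries, which is within the floor of 3 reads. Downstream of the receptors, the G protein subunits gustducin (Gnat3) and Gng13 stood at 3685 and 473 and at 2506 and 89. The phospholipase Plcb2 was at 438 and 15, and the cation channel Trpm5 at 14548 and 376, a ratio of 38.7 (35.3 to 42.5). Expressed per kilobase of annotated exon, the EGFP library held 2708 normalized counts of Gnat3, 3242 of Gng13, 2274 of Trpm5 and 66.4 of Plcb2, so the phospholipase transcript was the scarcest of these 4. The inositol trisphosphate receptor Itpr3, the usual partner of this cascade, stood at 260 and 256. Its relative Itpr2 stood at 2548 and 21, a ratio of 121 (81.8 to 184). The phosphodiesterase Pde1a was at 0 and 70.

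Of the genes that shape G protein and second messenger signals, 25 were at the minimum, from a list of 35. Of these 25 genes, 15 were higher and 5 lower, beside 13.4% and 22.8% of all genes, and the median log2 value was 2.87. Rgs13, a regulator that shortens G protein signalling, stood at 38751 and 1852, a ratio of 20.9 (20.1 to 21.8). Rgs2 stood at 26986 and 2520, Rgs22 at 423 and 11 and Rgs14 at 219 and 2. Phosphoinositide signalling was represented by the kinase subunits Pik3cg at 1808 and 140 and Pik3r5 at 5147 and 384, and by the phosphatases Inpp5d at 1507 and 118 and Inpp5j at 3667 and 259. Camk2b, a calcium-dependent kinase, stood at 1369 and 82. Rgs10 at 23 and 608, the fatty acid receptor Ffar2 at 0 and 257, and the kinase Prkcb at 2 and 106 were lower.

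Of 27 eicosanoid genes, 20 were at the minimum, 6 of them higher and 4 lower, beside 13.4% and 22.8% of all genes. Their median log2 value was 0.62. The higher genes include members of the leukotriene and of the prostaglandin branch. Alox5 and Alox5ap, which start leukotriene synthesis from arachidonic acid, stood at 18046 and 937 and at 16819 and 919. Ltc4s, which makes leukotriene C4, stood at 8054 and 440. Ptgs1, the constitutive cyclooxygenase, stood at 11233 and 463, a ratio of 24.3 (22.3 to 26.4), and Hpgds, which makes prostaglandin D2, at 5529 and 471. The phospholipase Pla2g16 was at 4447 and 927. Per kilobase of exon, Alox5ap reached 11844 normalized counts in the EGFP library, Ltc4s 7943, Alox5 4395, Ptgs1 2892 and Hpgds 861. The lower genes were Ptgs2, the inducible cyclooxygenase, at 20 and 216, Ptgr1, which inactivates prostaglandins and leukotriene B4, at 1081 and 11704, the prostaglandin transporter Slco2a1 at 29 and 935, and the thromboxane synthase Tbxas1 at 2 and 121. Lta4h, which leads to leukotriene B4, stood at 425 and 1075 and did not pass the rule.

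Kinases, phosphatases and adaptors best known from blood cells gave the highest median of all functional lists, a log2 value of 3.02. Of 27 genes at the minimum, from a list of 34, 16 were higher and 3 lower, beside 13.4% and 22.8% of all genes. Together the list held 1.11% of counts in EGFP-positive and 0.0856% in Tomato-positive cells. The adaptor Dok2 was at 3329 and 64, a ratio of 52.0 (41.8 to 66.3). The phosphatase Ptpn6 stood at 21888 and 808, and the kinases Matk and Bmx at 1893 and 69 and at 4372 and 261. The small GTPase Rac2 and its exchange factor Vav1 stood at 11586 and 955 and at 7021 and 668. Not every gene of this kind followed. The T cell kinase Lck was at 0 and 77, Lcp2, an adaptor of T cells and mast cells, at 2 and 234, and Btk, a kinase of B cells and myeloid cells, at 22 and 186. The pan-leukocyte phosphatase Ptprc stood at 1051 and 768 and did not pass the rule. Of 14 genes of the myeloid list at the minimum, all 14 were lower, and their list summed to 15 normalized counts in the EGFP library against 19123 in the Tomato library.

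**Figure D2:**
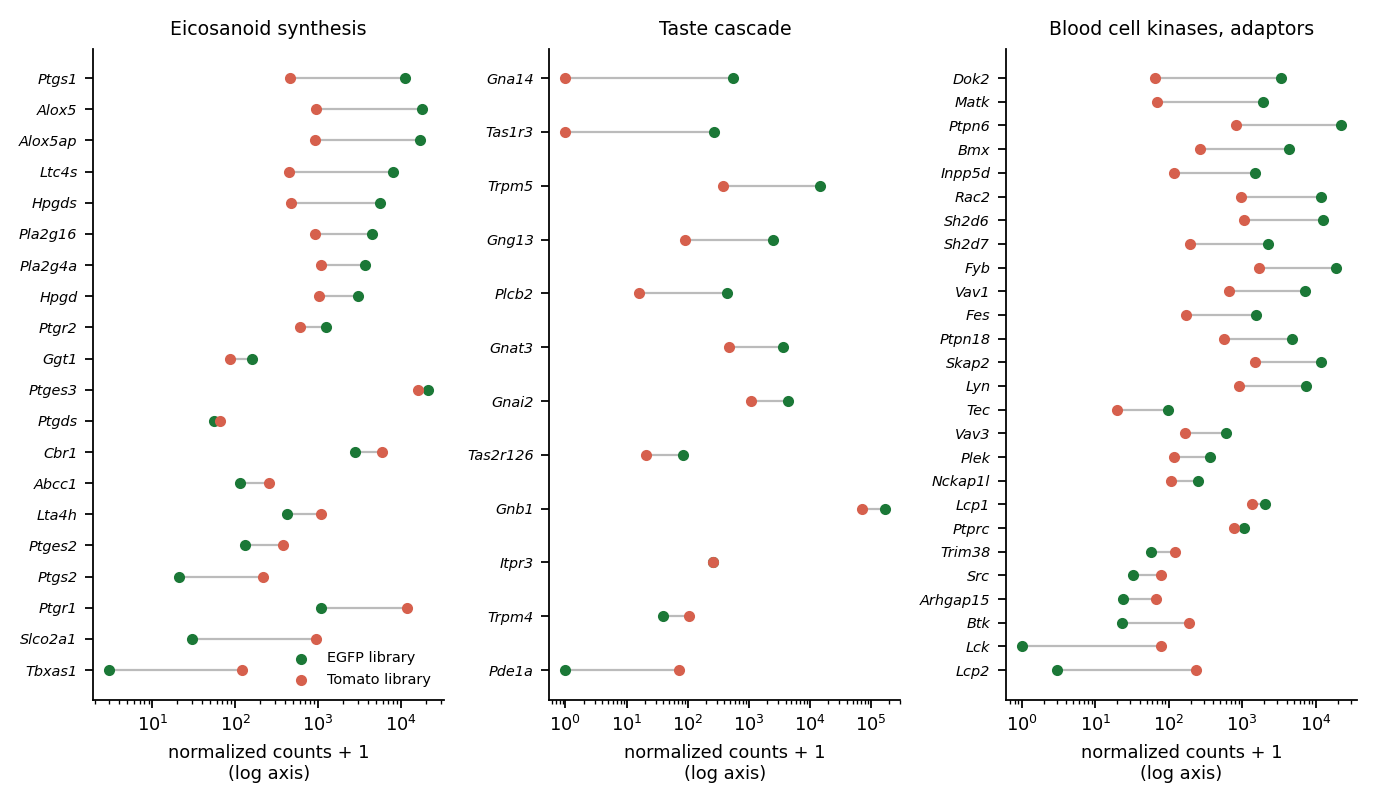
Normalized counts + 1 (x axis, log scale) of genes at the minimum from 3 functional lists, in the EGFP library (green) and the Tomato library (red) of the stomach. Genes are ordered by log2 value from top to bottom; Ptgs1, Gna14 and Dok2 head the 3 panels, and Tbxas1, Pde1a and Lcp2 end them.

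Among 25 surface proteins of leukocytes at the minimum, 7 were higher and 6 lower, beside 13.4% and 22.8% of all genes. Siglecf, a sialic acid-binding lectin known from eosinophils, stood at 3384 and 99, a ratio of 34.2 (28.6 to 41.4). Il17rb, the receptor subunit for interleukin-25, was at 819 and 48, Itgb2, an integrin of leukocytes, at 469 and 35, and Cd300lf at 3646 and 412. Il13ra1, a subunit of the interleukin-13 receptor, stood at 7037 and 1431, while its partner Il4ra at 623 and 340 lay within 2-fold. Cd14 at 0 and 1905, Fcgr3 at 0 and 1284 and Fcer1g at 0 and 945, all of myeloid cells, were lower. Among 17 cytokines and chemokines at the minimum, 2 were higher and 14 lower. Il25 was at 359 and 0, at least 147-fold higher, and Tnfsf13, a factor that sustains plasma cells, was at 61 and 3. Cxcl2 at 0 and 1469, Cxcl1 at 8 and 1347, Il6 at 5 and 874 and Il1b at 0 and 310 were lower, as were the epithelial alarmins Il33 at 163 and 769 and Tslp at 1 and 60. Tnf stood at 57 and 43.

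The brush of microvilli was represented in part. Of 26 genes at the minimum, from a list of 30, 10 were higher and 5 lower, beside 13.4% and 22.8% of all genes. Their median log2 value was 0.77. Avil and Vil1, which encode the actin-bundling proteins advillin and villin, stood at 27919 and 2598 and at 3482 and 347. Espn, which encodes the bundling protein espin, was at 5352 and 412. Genes of the adhesion complex between microvillus tips were higher, with the protocadherin Cdhr2 at 10773 and 683, Cdhr5 at 2752 and 358 and the scaffold Anks4b at 355 and 1, while 2 further members, Ush1c and Myo7b, were under the minimum. The motor Myo1a stood at 1129 and 136. Pls1, a bundling protein of intestinal brush borders, stood at 9926 and 10510, and Ezr, which links actin to the membrane and is abundant in parietal cells, at 5214 and 13498. Fscn1 was at 0 and 73. Among 18 genes of microtubules and transport, 5 were higher and 5 lower, beside the same shares of all genes. Besides Dclk1, Map2 stood at 661 and 25 and Tuba1a, an alpha-tubulin of neurons, at 15001 and 1326. Map1b at 57 and 2256, Nefm at 0 and 84 and the kinesin Kif12 at 0 and 171 were lower.

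Genes of synaptic release and amine synthesis were lower for the most part. Of 15 genes at the minimum on the list of acetylcholine, ATP and neuron-type genes, 2 were higher and 10 lower, beside 13.4% and 22.8% of all genes. Their median log2 value was -7.14, or -5.89 with genes at 0 set to their floor. Chat, which makes acetylcholine, was at 75 and 0, at least 30.6-fold higher, and Nrgn was at 715 and 28. Snap25 and Syp, of synaptic vesicle release, were at 0 and 1496 and at 0 and 180. Hdc and Tph1, which make histamine and serotonin, stood at 33 and 5057 and at 0 and 140. The vesicular transporter Slc18a2 stood at 458 and 625. Of 21 hormone and granin genes at the minimum, 18 were lower, with a median log2 value of -6.67, or -5.79 with genes at 0 set to their floor. Gast was at 15 and 31644 and Sst at 718 and 39647. Sct, which encodes secretin, was the exception at 866 and 14, a ratio of 61.9 (38.8 to 108). The hormone-processing enzyme Cpe stood at 15570 and 8111 and lay within 2-fold, whereas its partners Pcsk1 at 0 and 507 and Pcsk2 at 22 and 1026 were lower.

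**Figure D3:**
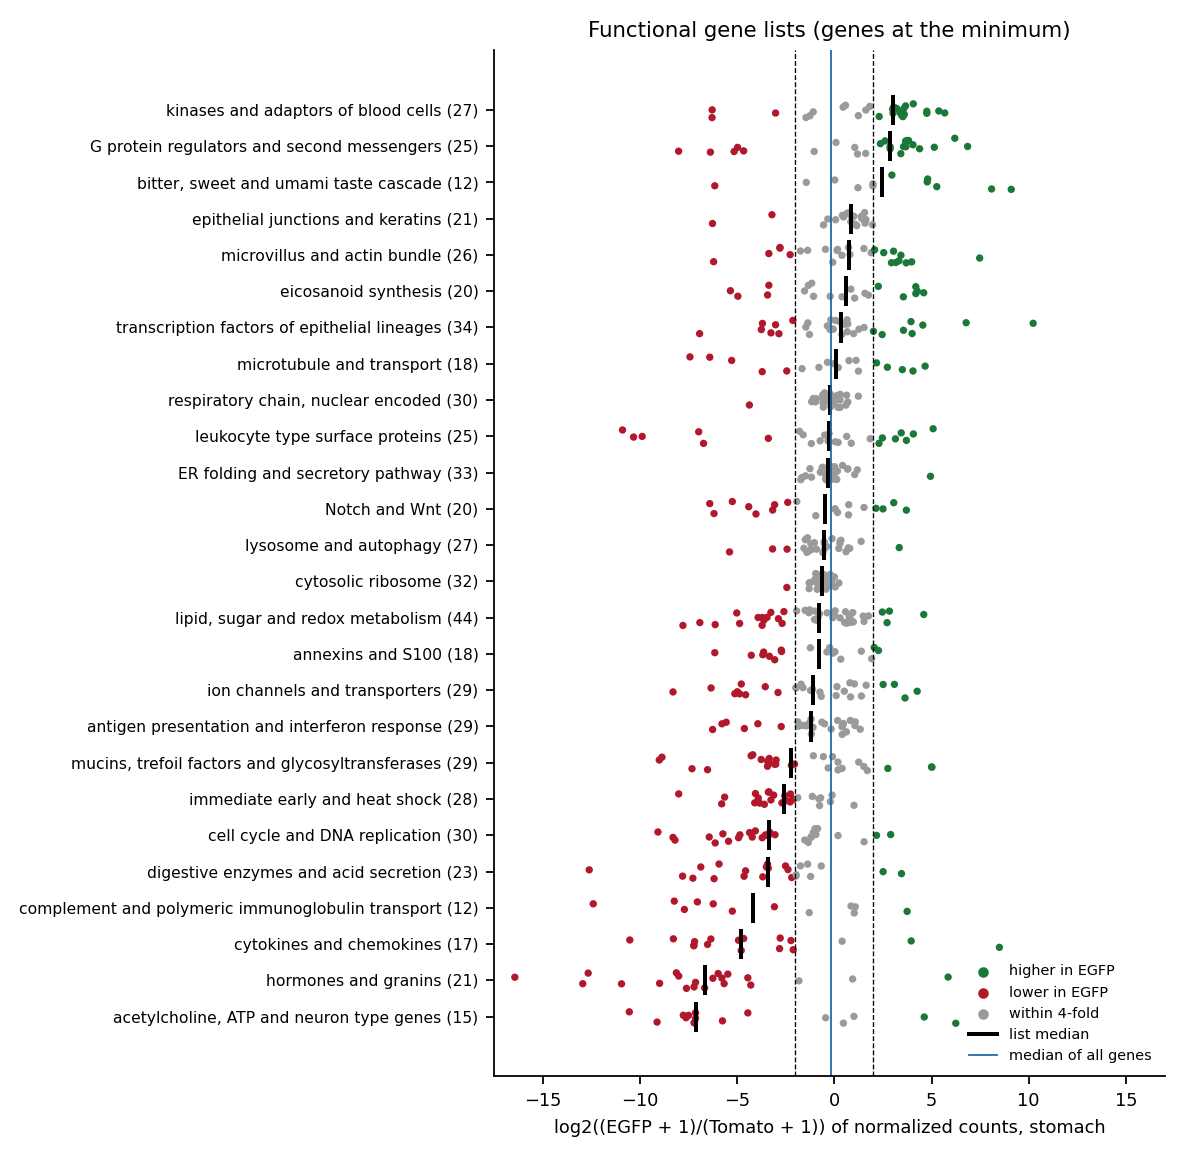
Log2((EGFP + 1)/(Tomato + 1)) of normalized counts (x axis) for the genes at the minimum of each functional list (rows, number of genes in brackets). Points are genes, black bars are list medians, dashed lines mark the 4-fold rule and the blue line the median of all genes other than immunoglobulins; medians run from -7.14 to 3.02.

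Secretory products of the stomach were mostly lower in EGFP-positive cells. Of 23 genes of digestion and acid secretion at the minimum, 15 were lower, and the list held 1.99% of counts in EGFP-positive and 21.2% in Tomato-positive cells. Gif, gastric intrinsic factor, stood at 6994 and 89704, the pancreatic-type lipase Pnliprp2 at 1217 and 13704 and the gastrin receptor Cckbr at 0 and 223. Subunits of the proton pump of parietal cells, Atp4a at 2102 and 4906 and Atp4b at 2953 and 11629, did not pass the rule. Kcnq1, a potassium channel, was higher at 409 and 71. Prss1, a trypsinogen, was higher at 1227 and 111 while its relative Try4 stood at 26 and 1967. Reads that aligned to several such copies were left out, so values of single copies are uncertain. Among 29 mucins, trefoil factors and glycosyltransferases at the minimum, 3 were higher and 16 lower, beside 13.4% and 22.8% of all genes. The trefoil factors Tff1 at 2965 and 30932 and Tff2 at 1346 and 26179 and the gel-forming mucin Muc5ac at 697 and 7567 were lower. The membrane mucin Muc13 stood at 1168 and 35 and the sialyltransferase St6gal1 at 383 and 11, and both were higher, whereas the sialyltransferases St3gal4 and St6galnac6 were at 0 and 466 and at 0 and 513. Muc1 stood at 12422 and 9405.

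In metabolism, 4 of 44 genes at the minimum were higher and 14 lower, shares of the list that stand beside 13.4% and 22.8% of all genes. Fabp1, a fatty acid-binding protein of the liver and intestine, stood at 2256 and 92, a ratio of 24.5 (20.3 to 29.8). Acsl4, which activates arachidonic acid, stood at 24336 and 3713, Aldh2 at 10865 and 1524, and the desaturase Scd2 at 1621 and 292 while its relative Scd1 was at 0 and 220. Several genes of detoxification were lower, among them Nqo1 at 1227 and 11811, Gsta3 at 96 and 3146, Gstm1 at 867 and 9555 and Gpx3 at 200 and 5888. Gpx1 at 34747 and 34863 and the cholesterol gene Hmgcs1 at 17140 and 5949 did not pass the rule. Among 29 ion channels and transporters, 4 were higher and 9 lower. The bicarbonate carrier Slc4a8 stood at 651 and 33, the calcium pump Atp2a3 at 11155 and 896 and the potassium channel Kcnk5 at 348 and 40, while the channel subunit Kcne3 was at 0 and 314 and the lactate carrier Slc16a1 at 9 and 275.

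Keratins and junction genes gave few calls. Of 21 at the minimum, none was higher and 2 were lower, Krt19 at 2033 and 18816 and Cldn4 at 2 and 230, while the median log2 value was 0.85. Epcam, on which only the Tomato sort was gated, stood at 4648 and 1751, a ratio of 2.65 (2.53 to 2.79). Cldn18, the claudin of gastric epithelium, stood at 95215 and 47299, Krt8 at 56723 and 31049 and the cadherin Cdh1 at 5146 and 4914. In Notch and Wnt signalling, 4 of 20 genes were higher and 8 lower, beside 13.4% and 22.8% of all genes. The Wnt receptor Fzd5 stood at 625 and 47 and the Wnt effector Tcf7l2 at 12112 and 2739. The Notch target Hes1 was at 21 and 465, the ligand Jag1 at 190 and 1720 and the receptor Notch2 at 151 and 1278, while the ligand Dll4 was at 50 and 8. The stem cell receptor Lgr5 stood at 368 and 127.

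Of 30 cell cycle genes at the minimum, 17 were lower, 2 higher and 11 in neither direction, with a median log2 value of -3.36, beside 22.8% lower and 13.4% higher among all genes. Their list summed to 27645 with EGFP and 27021 with Tomato, and most of the first sum was Cdkn1c. Mki67 and Ccnb1 were at 0 and 538 and at 0 and 314, and Ube2c was at 20 and 1818. Cdkn1c, an inhibitor of cyclin-dependent kinases, was higher at 17784 and 2386, a ratio of 7.45 (7.17 to 7.75), and the replication factor Cdc6 at 89 and 19. Replication genes such as Pcna at 285 and 562 and Mcm2 at 117 and 270 did not pass the rule. Among 28 immediate early and heat shock genes, 20 were lower and none higher. Fos stood at 556 and 8386, Junb at 324 and 5408, Hspa1a at 511 and 4909 and Egr2 at 0 and 256. Transcripts of this kind are known to rise during tissue dissociation and sorting, and their part in the differences was not tested.

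The chains of class II molecules, which present antigens to T cells, were lower. H2-Aa stood at 70 and 5449, 77.8-fold lower (63.2 to 97.1), H2-Ab1 at 332 and 8231 and H2-Eb1 at 86 and 4109. The class I genes H2-D1 at 28262 and 18409, H2-K1 at 6610 and 14129 and B2m at 10434 and 9279 did not pass the rule. Of 29 genes on the list of antigen presentation and interferon response, 6 were lower and none higher, beside 22.8% and 13.4% of all genes. The interferon-response gene Irf7 at 765 and 433 did not pass. Complement C3 stood at 28 and 1100 and the Fc receptor Fcgrt at 12 and 974, while factor B (Cfb) was higher at 66 and 4. Annexins and S100 genes held 2 higher and 8 lower genes among 18, beside the same shares of all genes. S100a1 stood at 6198 and 1284 and Anxa4 at 28775 and 6937, and Anxa3 at 190 and 2374 and S100a6 at 469 and 3116 were lower.

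Housekeeping functions gave few calls. The list of 30 nuclear genes for mitochondrial respiration includes the regulators Ppargc1a and Tfam beside subunits of the chain. Of these genes 1 passed the rule, the coactivator Ppargc1a at 5 and 123, and the median log2 value was -0.21. Of 32 ribosomal protein genes, 1 was lower, Rps2 at 919 and 5002, with a median of -0.66. Of 33 genes of folding and secretion in the endoplasmic reticulum, 1 was higher and none lower. This was Mzb1, a chaperone of antibody-secreting cells, at 1848 and 59. Xbp1, the driver of the secretory programme, stood at 1775 and 1756, Hspa5 at 7662 and 17302 and Calr at 3341 and 3335. Of 27 lysosome and autophagy genes, 1 was higher, Map1lc3a at 859 and 84, and 3 were lower, among them Tfeb at 2 and 125.

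Immunoglobulin genes were set apart because antibody genes are rearranged and transcribed in B cells and plasma cells. They held 12.9% of counts in EGFP-positive and 0.549% in Tomato-positive cells, with intervals of 12.85 to 12.89 and 0.545 to 0.552 from counting error. Of the 191 genes at the minimum, 181 were higher, none was lower and 10 passed in neither direction, with a median log2 value of 8.36, and 126 were at 0 in the Tomato library. All 191 reached 50 in the EGFP library and only 32 did so in the Tomato library. The minimum was thus passed through the EGFP library, so these counts and the median are descriptions that depend on it. Igha, the constant region of immunoglobulin A, had a ratio of 20.7 (20.5 to 20.9). The kappa constant gene Igkc and Jchain, which joins antibodies into dimers, had ratios of 18.7 and 17.7, with Jchain at 149752 and 8479. Ighm, the constant region of immunoglobulin M, stood at 40534 and 242, a ratio of 167 (149 to 188), and the lambda constant gene Iglc1 at 17258 and 15. The immunoglobulin G constant genes summed to 522 and 20.

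Within the immunoglobulin counts of each library, constant regions of immunoglobulin A and of kappa chains prevailed. Of the heavy chain constant counts, Igha held 94.2% with EGFP and 99.2% with Tomato. The classes of genes took similar shares of all immunoglobulin counts in both, with 40.5% and 38.5% for heavy constant genes, 31.5% and 33.6% for light constant genes and 8.54% and 10.01% for Jchain. Of 72 kappa variable segments at the minimum, all 72 reached 50 in EGFP-positive cells, and 5 of them did so in Tomato-positive cells. The corresponding numbers for 97 heavy variable segments were 97 and 13. Every one of these segments had thus passed the minimum through the EGFP library, and immunoglobulin counts summed to 1753832 there against 84684, so the numbers of segments at 50 or more are no comparison of how many segments each library held. The most abundant kappa segment held 5.31% of these variable counts with EGFP and 28.7% with Tomato, and the first 10 held 40.3% and 99.9%. Segments named here were picked after their values were seen. Igkv6-23 stood at 11062 and 0 and Igkv12-46 at 10596 and 0, whereas Igkv4-61 stood at 5571 and 2541, Igkv13-85 at 775 and 834 and Ighv5-4 at 253 and 496. Variable segments of the same family resemble each other, and reads that aligned to several places were left out. Values of single segments are therefore uncertain.

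**Figure D4:**
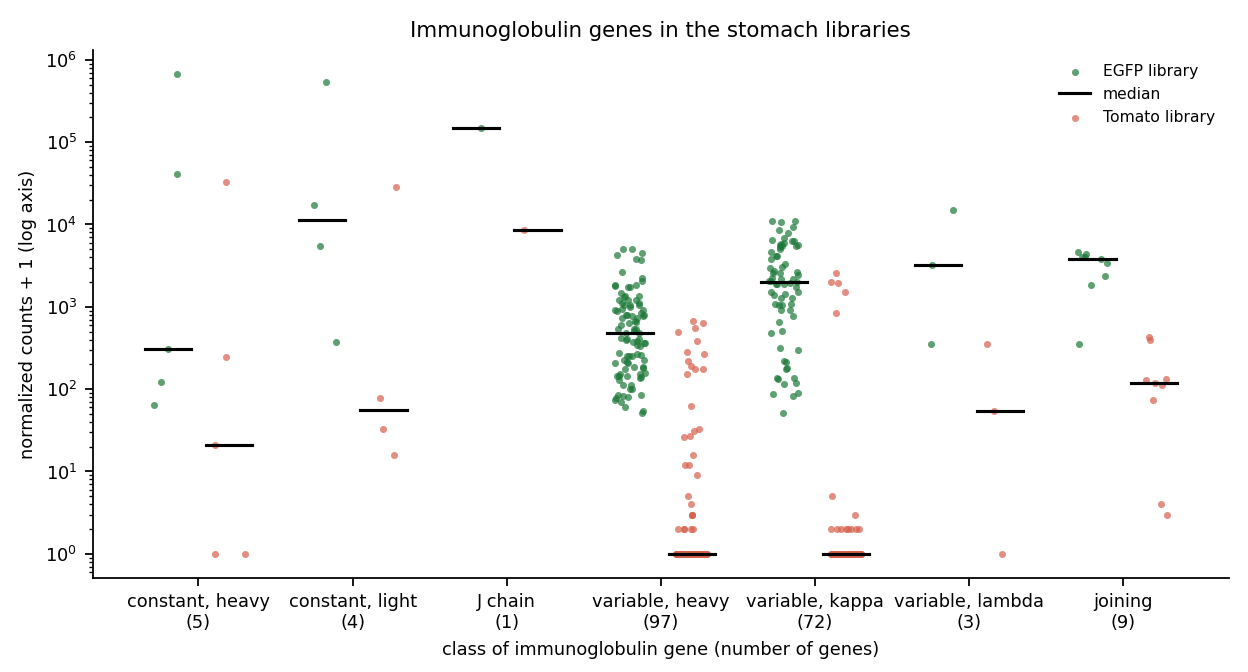
Normalized counts + 1 (y axis, log scale) of the 191 immunoglobulin genes at the minimum, by class (x axis, number of genes in brackets), in the EGFP library (green) and Tomato library (red). Points are genes and bars are medians. The median of the kappa and heavy variable segments in the Tomato library is at a value of 0. All 191 genes reached the minimum in the EGFP library.

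Genes listed for B cells and plasma cells, among which Jchain is counted again, gave a mixed picture. Of 11 at the minimum, from a list of 18, 7 were higher and none lower. They were Jchain, Mzb1, Cd79b, Cd79a at 791 and 20, the coactivator Pou2af1 at 445 and 0, the plasma cell receptor Tnfrsf17 at 132 and 2, and the adaptor Blnk at 1625 and 225. Xbp1, Sdc1 at 499 and 1023, Derl3 at 231 and 352 and Fcrla at 153 and 65 did not pass the rule. The B cell genes Ms4a1 and Pax5 were at 0 in both libraries, and Irf4 at 5 and 0 and Prdm1 at 29 and 12 were under the minimum. Without Jchain, the genes of their list found in the table summed to 10432 and 3517, which is 0.0765% of counts with EGFP and 0.0228% with Tomato. The EGFP sort had no EpCAM gate, and the part of other cells in the immunoglobulin values was not tested. The receptor Pigr, which carries immunoglobulin A across epithelia, was at 3 and 1.

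Markers of the remaining cell types were mostly lower in the EGFP library. All 11 enteroendocrine genes, all 5 chief cell genes, all 8 pit cell genes and all 4 neck cell genes at the minimum were lower, with median log2 values of -7.61, -3.44, -3.37 and -4.24. Of 9 parietal cell genes, 4 were lower and Hgfac was higher at 2308 and 303. All 11 fibroblast genes were lower, and 6 of 7 mast cell genes were, with Mcpt2 at 0 and 2435, while the seventh, Kit, stood at 322 and 197. The fibroblast list summed to 288 normalized counts in the EGFP library and to 29559 in the Tomato library. The mast cell list summed to 322, all of them from Kit, and to 5924. The Tomato library held these counts although its sort was gated on EpCAM. Among 8 endothelial genes, Tek, a receptor for angiopoietins, was higher at 498 and 7 and 5 were lower. Smtn, a smooth muscle gene, was higher at 922 and 130 and the other 7 of its list were lower. The T cell genes Cd3d and Cd3e were at 0 in both libraries. The part of these cells in any difference above was not tested.

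**Figure D5:**
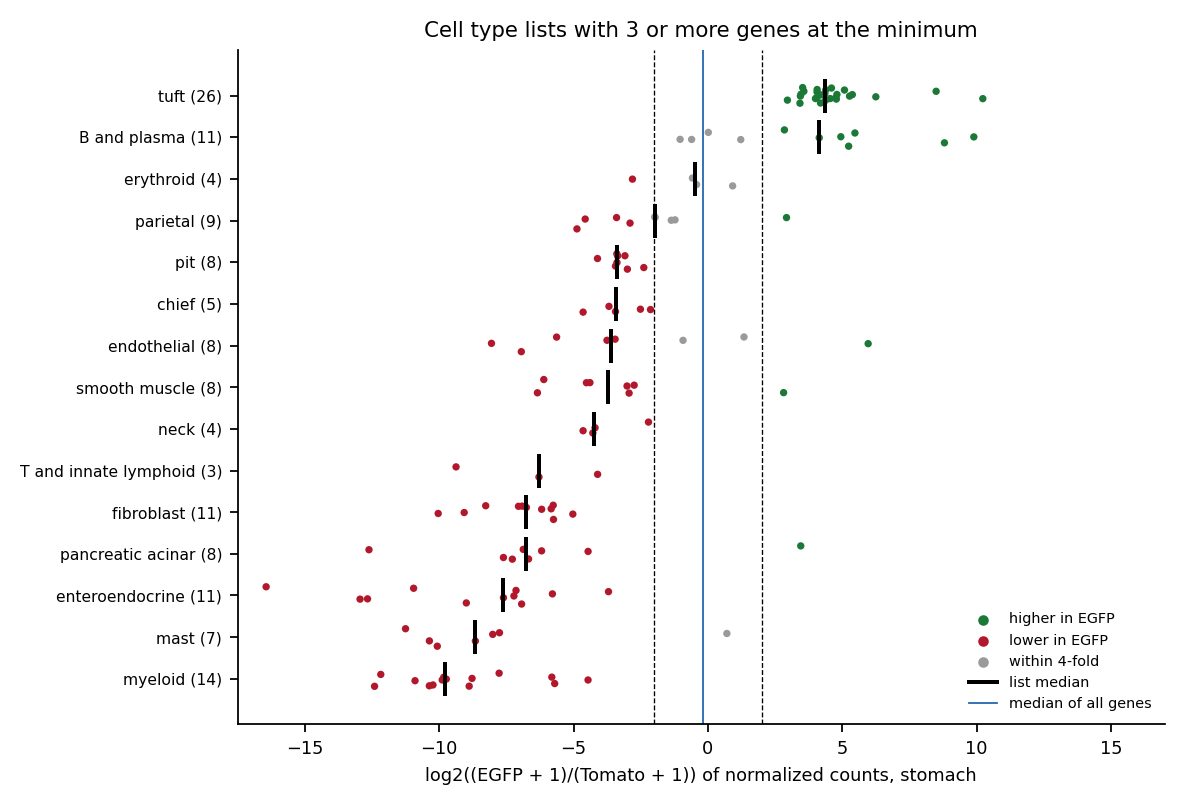
Log2((EGFP + 1)/(Tomato + 1)) of normalized counts (x axis) for the genes at the minimum of cell type lists (rows, number of genes in brackets). The lists of squamous forestomach, of neuron and glia and of club and ciliated airway cells had too few genes at the minimum and are not drawn. Points are genes, black bars are list medians and dashed lines mark the 4-fold rule. The lists of tuft cells and of B and plasma cells have medians of 4.36 and 4.14, and every other list has a median below 0. The list of B and plasma cells includes Jchain, whose own log2 value of 4.14 is the median of that list.

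In the trachea, 427 of the higher genes of the stomach were higher too, which is 29.3% of the 1458 stomach genes and 16.2% of the 2633 trachea genes. Of the lower genes, 827 were shared, which is 33.3% of 2487 and 24.3% of 3408. Only 989 of the higher and 1404 of the lower stomach genes were at the minimum in the trachea, and the shared genes were 43.2% and 58.9% of these. Among all genes at the minimum in the trachea, 25.1% were higher and 32.5% lower. Gfi1b and Siglecf, both higher in the stomach, were at 0 in both trachea libraries, and immunoglobulin genes held 0.352% and 0.0228% of the EGFP and Tomato libraries there. Depth differed in the trachea, with about 6.2 M reads in the EGFP and 18.4 M in the Tomato library.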

How the data were processed

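RNA-seq was run on 2 stomach sorts, EGFP-positive and Tomato-positive, each pooled from 3 mice, after PCR preamplification of cDNA without molecular identifiers, so intervals cover counting error only. The authors aligned reads to GRCm38 with STAR 2.4.0a and counted them per gene with featureCounts 1.4.5-p1. The deposited values (unit: score) are counts that the authors divided by a factor per library and rounded. The origin of the factors and the strand setting are not given in the sources used here, so antisense overlaps cannot be told apart. The paper's methods state that reads were left out where they aligned to several places or overlapped several genes.

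Of 116 symbols on more than 1 line, the line with the highest sum was kept. The worth of 1 read was estimated from gaps between the values 3 to 60, as 0.786 (EGFP) and 0.816 (Tomato) normalized counts, and 3 reads served as floor for folds against 0. Because of rounding, no count model was run. Exon lengths came from GENCODE M21. Groups follow sample titles. Analyses used Python 3.11.15, pandas 2.3.3, scipy 1.17.1 and matplotlib 3.10.9. The estimate of the worth of 1 read was tested on simulated data. Genes named were the markers, the 12 highest and 12 lowest protein-coding genes at 500 or more, the 10 most abundant per library, the 8 most abundant immunoglobulin constant or J chain genes and, per list, up to 5 members with the largest difference past the rule and up to 2 at 500 or more with the smallest. Some genes that this rule takes are not reported here. Further members were named after their values were seen. Members and lists were chosen with earlier results of these data known. Other pseudocounts, scalings, minimums and rules of size were tried.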

Additional observations from a re-analysis of the deposited data

Results flagged for a closer look

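Among the named genes at 500 or more in both tissues, the 6 given here passed the rule in opposite directions in stomach and trachea. With 1 library a side in each tissue, the difference between tissues was not tested. The trachea EGFP library held about 6.2 M reads and the trachea Tomato library about 18.4 M. The part of this depth in the trachea calls was not tested. Higher in the stomach and lower in the trachea were Tg, with log2 values of 9.25 and -11.45, Epg5, with 8.18 and -9.64, Ighm, with 7.38 and -7.60, and Map1lc3a, with 3.34 and -2.39. Lower in the stomach and higher in the trachea were Map1b, with -5.28 and 6.04, and Prune2, with -11.70 and 10.12. Of the 1458 higher stomach genes, 244 were lower in the trachea, and of the 2487 lower ones, 251 were higher there. These were 24.7% of the 989 higher and 17.9% of the 1404 lower stomach genes that were at the minimum in the trachea, where 32.5% of all genes were lower and 25.1% higher.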

How the results depend on the processing

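No paired analysis was possible because there is 1 library per sort. The counts of higher and lower genes, 1458 and 2487, became 551 and 605 with a minimum of 500, 2499 and 4234 with no minimum, 2697 and 3663 with a 2-fold rule and 534 and 1419 with a 16-fold rule. Higher genes were 37% of all calls, 47.7% with a minimum of 500 and 27.3% with the 16-fold rule. Scaling both libraries to the same total shifted the log2 scale by 0.18, scaling to the same total without immunoglobulin and the highest genes by -0.11 and setting to 0 the median log2 ratio of genes at 50 or more in both libraries by -0.03, and the counts stayed within 1.5 times under these and a pseudocount of 10. Under these 4 alternatives none of the 151 called named genes lost its call or changed direction, and Krt18 and Gnai2 passed the rule after scaling to the same total. The median of the microtubule list, 0.08, became -0.03 without immunoglobulin and the highest genes, and no other list median changed sign under the 3 scalings. Counts of higher or lower genes in single lists were less stable. With a minimum of 500, 39 of them changed by more than 1.5 times or to or from 0. This held for 39 with the 16-fold rule, 23 with the 2-fold rule and 9 with no minimum. At most 1 did so under each scaling and under the pseudocount of 10. Over protein-coding and immunoglobulin genes alone, the immunoglobulin share was 13.1% and 0.556%. The limits are the single library per sort, which leaves the spread between mice unknown, the EpCAM gate on 1 sort only, which cannot be told apart from the reporter, and the floor of 3 reads, 2.36 and 2.45 normalized counts.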
